A study of Mus musculus with 4 samples.

Results

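The genes by which neurons are sorted into glutamate, GABA and acetylcholine cells were followed here through nuclei of the mouse mediobasal hypothalamus. They were taken by symbol and make up 9 of the 31053 genes in the deposited count matrix. Slc17a6, Slc17a7 and Slc17a8 encode the vesicular glutamate transporters VGLUT2, VGLUT1 and VGLUT3. Slc32a1 encodes the vesicular GABA and glycine transporter, and Gad1 and Gad2 encode the enzymes that make GABA from glutamate. Chat, Slc18a3 and Slc5a7 encode choline acetyltransferase, the vesicular acetylcholine transporter and the high-affinity choline transporter. The nuclei came from wild-type mice with free access to chow that were given saline or insulin, and were sorted by flow cytometry before droplet-based 3-prime RNA sequencing. There were 2 Saline and 2 Insulin libraries, 1 of each in either of 2 sequencing runs, called A and B here by the order of the run numbers in the authors' table. Dose, route, time after treatment, age and the number of mice per library are not given in the sources used here, so a p-value refers to the spread among the 4 libraries alone.

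A neuron releases a fast transmitter only if it can load it into synaptic vesicles, and the vesicular transporters are therefore the usual genetic marks of glutamate and GABA cells. In the hypothalamus Slc17a6 is the main glutamate transporter gene, while Slc17a7 is known mainly from cortex. Many feeding circuits here are GABA circuits, among them the Agrp neurons that drive eating, whereas Pomc neurons, which restrain eating, have been described as a mixed group. Gad enzymes alone do not make a GABA cell, since GABA must also be packed into vesicles.

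The promoter windows printed here are those of the main glutamate and GABA transporter genes, whose levels ran against each other across neuron populations, and of Slc18a3, for which no transcript was counted. They are the 250 bases before a transcription start site, from RefSeq on GRCm38.p6, in lower case. Capitals mark TAATTA, the core bound by many homeodomain factors such as the Dlx proteins of GABA lineages, and CAGCTG, an E-box bound by many basic helix-loop-helix factors. Both motifs read the same on either strand and do not overlap each other. The windows lie at chr7:51621580-51621829 and chr7:51624387-51624636 (plus strand, 2 starts of Slc17a6), chr2:158610508-158610757 (plus strand, Slc32a1) and chr14:32464851-32465100 (minus strand, Slc18a3).
Slc17a6, first start: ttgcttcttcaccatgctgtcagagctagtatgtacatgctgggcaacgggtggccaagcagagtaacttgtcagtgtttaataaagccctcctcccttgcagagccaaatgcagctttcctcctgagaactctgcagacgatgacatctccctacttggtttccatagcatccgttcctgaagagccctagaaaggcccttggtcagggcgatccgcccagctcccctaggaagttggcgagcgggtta
Slc17a6, second start: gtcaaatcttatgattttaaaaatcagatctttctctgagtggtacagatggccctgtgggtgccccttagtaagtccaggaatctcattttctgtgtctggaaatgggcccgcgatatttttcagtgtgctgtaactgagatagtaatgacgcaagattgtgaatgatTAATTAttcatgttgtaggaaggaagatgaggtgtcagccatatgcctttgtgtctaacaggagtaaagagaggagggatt
Slc32a1: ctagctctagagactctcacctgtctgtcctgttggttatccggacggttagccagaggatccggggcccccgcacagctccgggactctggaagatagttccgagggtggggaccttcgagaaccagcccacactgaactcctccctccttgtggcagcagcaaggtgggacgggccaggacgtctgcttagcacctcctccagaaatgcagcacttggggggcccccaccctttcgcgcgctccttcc
Slc18a3: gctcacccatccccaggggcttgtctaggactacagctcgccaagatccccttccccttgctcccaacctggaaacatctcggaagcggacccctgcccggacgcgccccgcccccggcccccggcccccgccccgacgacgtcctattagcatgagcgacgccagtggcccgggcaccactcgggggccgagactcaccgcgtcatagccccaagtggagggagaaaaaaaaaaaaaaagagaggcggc
TAATTA stood in 2 of the 11 windows found for the 9 genes, at the second starts of Slc17a6 and Slc17a8. Of all 32851 RefSeq promoter windows of this length, 4.84% held it. CAGCTG stood in 1 of the 11 windows, that of Chat, against 4271 of the 32851 windows. Neither stood in the windows of Slc32a1, Gad1 and Gad2, which says only that these letters are not in those 250 bases. The windows of Gad1, Gad2, Chat and the first start of Slc17a8 reach into untranslated exons of the GENCODE vM21 annotation and are not printed. Of the printed windows, that of Slc32a1 overlaps exons of Gm14204 on the opposite strand, by up to 196 bases. That of Slc18a3 overlaps 59 bases of an exon of Gm2990, also on the opposite strand.

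On GRCm38 by GENCODE vM21, Slc17a6 (ENSMUSG00000030500) lies on chromosome 7 from 51622006 to 51671119, Slc32a1 (ENSMUSG00000037771) on chromosome 2 from 158610767 to 158615748, Gad1 (ENSMUSG00000070880) on chromosome 2 from 70553072 to 70602014 and Gad2 (ENSMUSG00000026787) on chromosome 2 from 22622205 to 22693874. Slc17a7 (ENSMUSG00000070570) lies on chromosome 7 from 45163949 to 45176142 and Slc17a8 (ENSMUSG00000019935) on chromosome 10 from 89574020 to 89621253. Chat (ENSMUSG00000021919) lies on chromosome 14 from 32408203 to 32465989 and Slc5a7 (ENSMUSG00000023945) on chromosome 17 from 54273590 to 54299034.

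The authors annotated 36523 of the nuclei in the matrix, 23261 of them as neurons in 37 populations, and 35 populations had at least 10 nuclei in every library. Library totals ran from 63590421 to 71391593 UMIs (unique molecule counts), and the median neuron held 7164 to 9330.5 UMIs. Neurons were marked as such by 5 of 6 neuron genes, Tubb3 being at 0 in all cell types. The nuclei annotated Endothelial went against their name: Flt1, Cldn5, Slco1c1 and Pecam1 were all highest in mural cells, and Rax and Col23a1 were highest in the Endothelial group. Run and sex coincided, since both libraries of run A had Xist below 5 CPM (UMI counts scaled to the UMI total of the same nuclei), at 4.53 and 4.88, whereas those of run B had 1614 and 1713. Of 36205 barcode sequences, 318 occurred in more than 1 library. The populations M13.Irx5 and M2.Hdc held 9 and 2 nuclei in the Saline library of run B, against 183 to 218 and 29 to 36 in the other libraries.

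Transmitter genes were also counted at a low level in cells that do not make the transmitter, as RNA set free from other nuclei can give. In the 6 non-neuronal cell types other than oligodendrocyte precursors (OPC), at median depths of 1919.5 to 4218.5 UMIs, Slc17a6 was seen in 6.22% to 18.1% of nuclei. Slc32a1 was seen in 4.35% to 10.8% of them, Gad1 in 4.60% to 9.21% and Gad2 in 7.17% to 14.0%. Microglia had the highest shares of Slc17a6, Slc32a1 and Gad2. These shares serve as the background for the shares of neurons, which were deeper, at a median of 8445 UMIs.

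Slc17a6 was the glutamate transporter gene of this tissue: 18484 of its 20059 UMIs lay in neurons, and it was found in 39.3% ± 5.65 of them (SD, n = 4 libraries). Values for single libraries are given for run A and then run B. M28.Tac2, the neurons named for neurokinin B, had the highest level, at 189 and 191 CPM in the Saline and 242 and 298 CPM in the Insulin libraries (mean 230.1 ± 51.7). All 4 of these values exceeded those of the next population, M7.Ust (155 ± 18.9 CPM). The populations after it, M5.Snypo2 (155 ± 11.9 CPM) and M1.GABA (148 ± 64.5 CPM), overlapped with it. M1.GABA, whose libraries ran from 69.0 to 217 CPM, overlapped with M28.Tac2 as well. M24.Avp/Oxt, the vasopressin and oxytocin neurons, stood at 124 ± 23.3 CPM and M29.Hcrt/Npvf, which holds the orexin neurons, at 93.0 ± 15.5 CPM. The lowest level was that of M31.Th, the dopamine neurons, at 8.33 ± 2.32 CPM. Along the order of the 35 populations, 32 of 34 neighbouring pairs overlapped in the ranges of their libraries. Values were not paired by library, so an overlap does not show that the levels are equal. The populations were defined by the authors on these same counts, and levels are therefore described without a test between populations.

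Slc17a8 was highest in the population that the authors named for it. M6.Slc17a8 held 205 of its 531 UMIs, at 37.2 and 43.4 CPM in the Saline and 55.2 and 47.7 CPM in the Insulin libraries, and 22.6% ± 4.81 of these nuclei carried it. All 4 libraries of M6.Slc17a8 exceeded those of the next population, M5.Snypo2 (13.2 ± 9.47 CPM, 40 UMIs in 25 of 266 nuclei). The median of the 35 populations was 0.797 CPM. The M6.Slc17a8 nuclei also had Slc17a6, at 143 ± 6.96 CPM. Slc17a7 was close to absent, with 52 UMIs in all. Its highest level, 3.01 ± 1.15 CPM, was again in M5.Snypo2, where 9 nuclei carried 10 UMIs, while 15 UMIs of M21.Nfix came from 3 nuclei.

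The GABA genes were highest in an overlapping set of populations. Slc32a1 was highest in M20.GABA, at 46.1 and 85.5 CPM in the Saline and 82.5 and 89.3 CPM in the Insulin libraries. M19.Ddc, M16.Npsr1 and M17.GABA were also among the highest, at 73.8 ± 18.5, 70.1 ± 15.4 and 67.3 ± 21.8 CPM. The Saline library of run A was the lowest of the 4 in each of these 4 populations. In astrocytes and oligodendrocytes of that library Slc32a1 was also lowest, at 4.60 UMIs per 100 nuclei against 6.36 to 10.7 in the others, and the part of this in the neuron values was not tested. M10.Sim1|Trh, named for a transcription factor and thyrotropin-releasing hormone, had the least Slc32a1 (3.23 ± 1.20 CPM).

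Among the 35 populations, Gad1 and Gad2 peaked together in M16.Npsr1, at 136 ± 22.3 and 352 ± 19.0 CPM. Gad2 was found there in 88.8% ± 1.49 of nuclei, and its 4 libraries lay between 332 and 377 CPM. Both genes were lowest in M8.Nr5a1, the population named for a factor of the ventromedial nucleus, at 5.57 ± 2.82 CPM for Gad1 and 11.9 ± 3.04 CPM for Gad2. The Agrp neurons (M26.Agrp) had Slc32a1 at 33.8 ± 13.8, Gad1 at 78.6 ± 24.5 and Gad2 at 196 ± 17.8 CPM, with Slc17a6 at 14.9 ± 7.76 CPM. The dopamine neurons (M31.Th) had Slc32a1 at 36.2 ± 6.16, Gad1 at 112 ± 20.7 and Gad2 at 205 ± 32.3 CPM. For each of the 3 GABA genes all 34 neighbouring pairs in the order of populations overlapped.

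**Figure D1:**
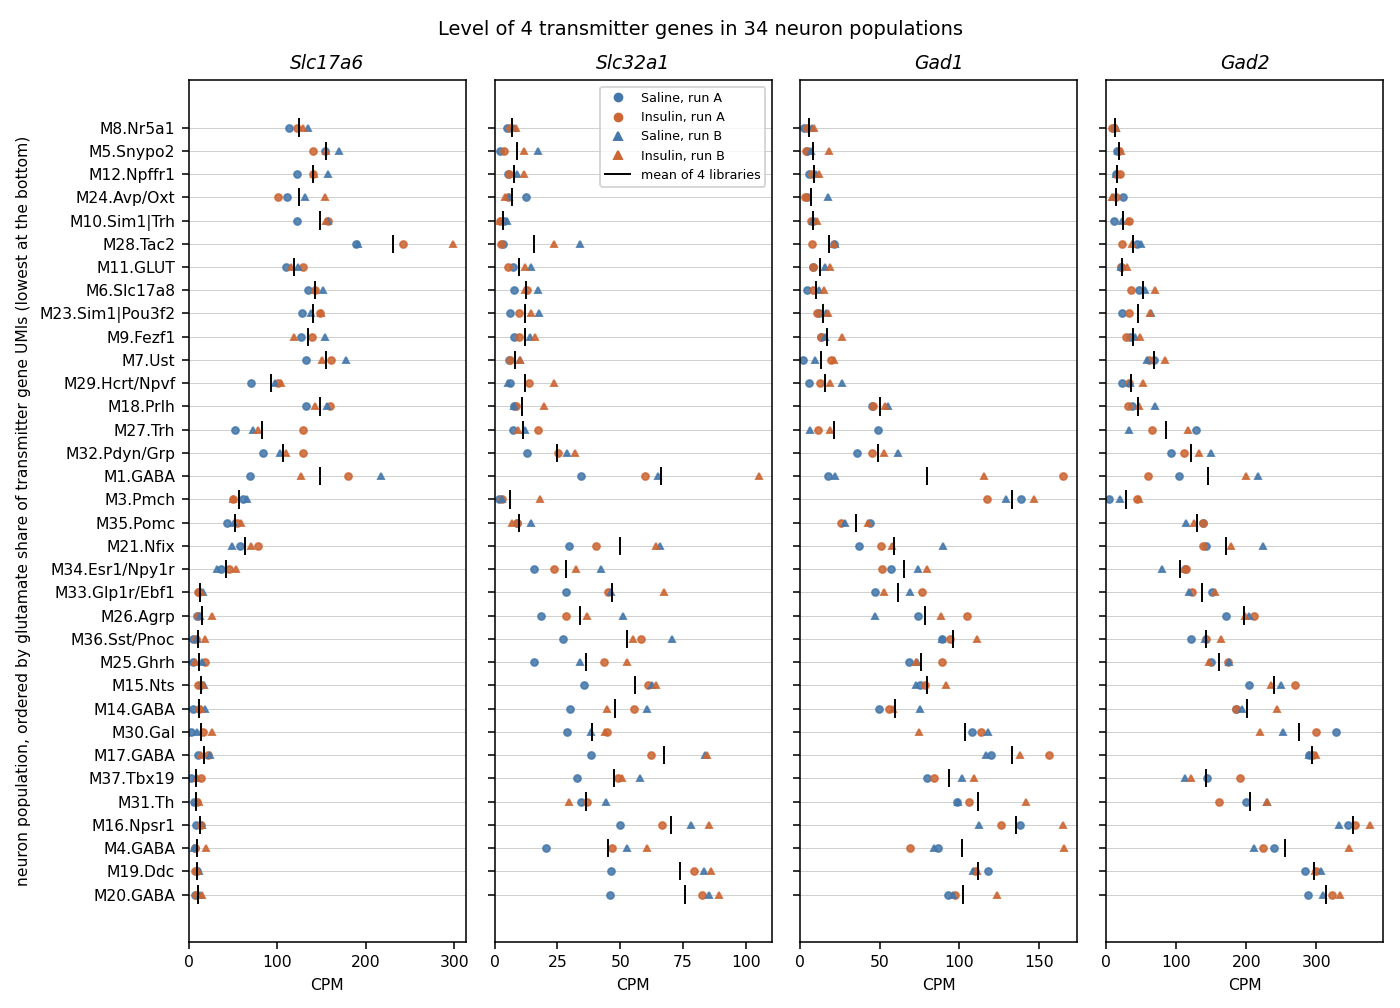
Levels of Slc17a6, Slc32a1, Gad1 and Gad2 (CPM, x axes) in 34 of the 35 neuron populations (y axis, ordered by glutamate share), with 1 point per library and a bar at the mean of 4 libraries. Slc17a6 is highest in M28.Tac2 and lowest in M31.Th, Gad2 is highest in M16.Npsr1, and M3.Pmch has high Gad1 beside low Slc32a1 and Gad2.

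Glutamate and GABA genes divided most populations into either kind. The glutamate share, the UMIs of the 3 glutamate transporter genes as a percent of those plus the 3 GABA genes, was used to order them. It ranks populations and does not compare levels between genes. Of 35 populations, 15 had a share under 6%, from 2.12% in M20.GABA to 5.30% in M33.Glp1r/Ebf1. Another 13 were above 50%, from 59.1% in M18.Prlh to 84.0% in M8.Nr5a1, and 7 lay between. The bounds of 6% and 50% were set after the shares were seen. In the 15 low populations Slc17a6 was found in 6.42% to 10.3% of nuclei, or 6.70 to 14.9 UMIs per 100 nuclei, which is within the range of the non-neuronal types (6.60 to 31.6 UMIs per 100 nuclei). In the 13 high populations Slc32a1 was found in 4.34% to 11.7% of nuclei, against 4.35% to 10.8% in the non-neuronal types. Astrocytes and oligodendrocytes of each library had a glutamate share of 22.8% to 25.6%, and all neurons of the same libraries one of 25.9% to 32.9%.

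The transporters alone drew the line elsewhere. With Slc17a6 against Slc32a1 only, 20 of 35 populations were above 50%, and the 7 intermediate ones were all among the 20. Leaving out the Gad genes takes UMIs from the GABA side, so a rise was built in wherever Gad UMIs were counted. All neurons together rose from 29.3% to 73.5%. With the transporters only, the non-neuronal types ran from 46.8% in astrocytes to 71.6% in Ependymo nuclei. M21.Nfix, M34.Esr1/Npy1r and M1.GABA lay within that range. M3.Pmch, the melanin-concentrating hormone neurons, moved from 25.9% ± 5.63 to 90.5% ± 11.3 (n = 4 libraries) and M35.Pomc from 23.6% ± 3.36 to 84.0% ± 4.85. The other intermediate populations, named because they fell between the bounds, were M34.Esr1/Npy1r (17.5% to 60.2%), M21.Nfix (20.2% to 56.6%), M32.Pdyn/Grp (36.0% to 81.4%), M27.Trh (43.8% to 87.7%) and M1.GABA. M27.Trh varied most from library to library, at 23.4% and 58.5% in the Saline and 58.0% and 35.1% in the Insulin libraries, and without the Saline library of run A its mean was 50.5%, making 14 populations above 50%. In M3.Pmch, M35.Pomc and M27.Trh a Gad gene stood beside a level of Slc32a1 within that of the 13 high populations, 3.23 to 15.8 CPM. M27.Trh had Slc32a1 at 11.5 ± 4.20 CPM and Gad2 at 85.9 ± 44.5 CPM, with libraries from 33.2 to 128 CPM for Gad2.

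**Figure D2:**
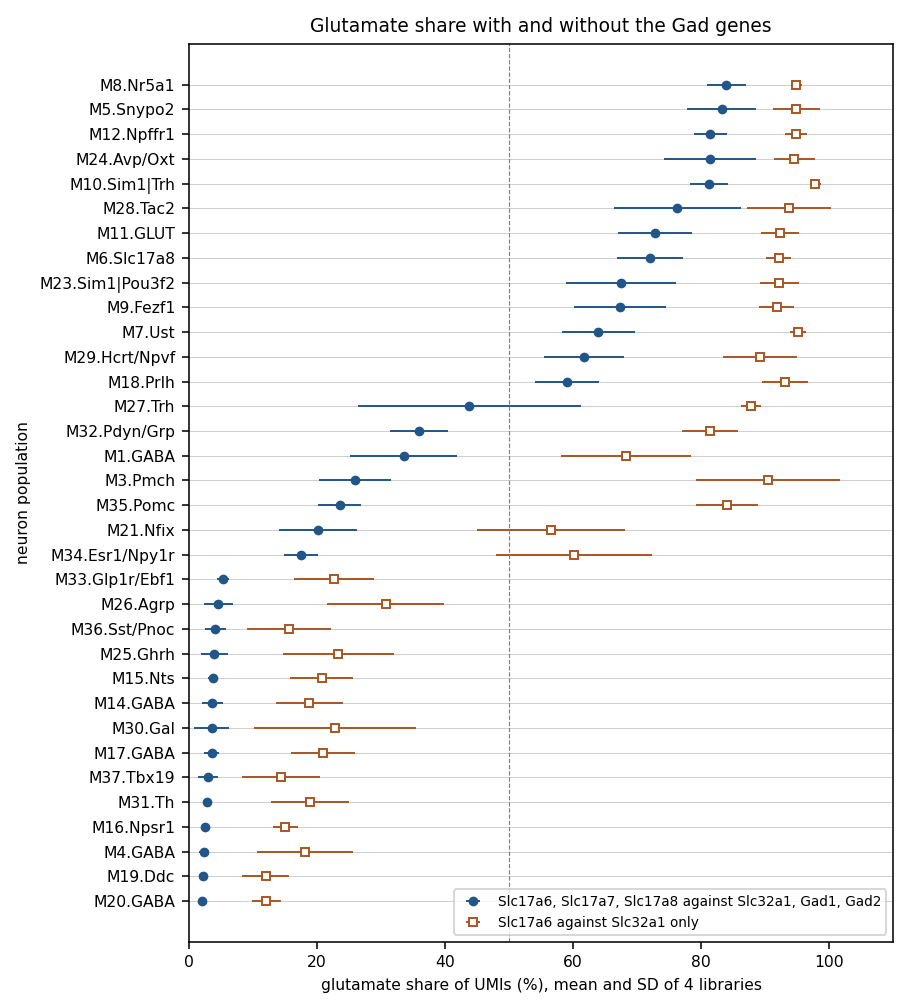
Glutamate share of UMIs (%, x axis) in 34 of the 35 neuron populations (y axis), as mean and SD of 4 libraries, with all 6 genes (filled circles) and with Slc17a6 against Slc32a1 only (open squares). The dashed line is at 50%. With all genes 13 populations are above it and with the transporters alone 20, a rise built in where Gad UMIs are left out. M3.Pmch moves from 25.9% to 90.5%.

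The melanin-concentrating hormone neurons carried Gad1 with little Slc32a1. In M3.Pmch Gad1 stood at 139 and 130 CPM in the Saline and 117 and 147 CPM in the Insulin libraries, the second highest mean of the 35 populations. It was found in 83 of 110 nuclei, while Slc32a1 was found in 7. Gad2 had 39 UMIs in 18 nuclei, at 4.75 and 19.3 CPM in the Saline and 44.6 and 46.7 CPM in the Insulin libraries. Slc17a6 was present at 57.1 ± 8.09 CPM in 54.0% ± 7.48 of nuclei. A Gad gene without Slc32a1 was seen in 74.8% ± 12.9 of M3.Pmch nuclei, whose median depth of 13308.5 UMIs was the highest of the 35 populations. In the 15 populations of low glutamate share this was seen in 45.0% to 59.6% of nuclei.

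M2.Hdc, the histamine neurons of the tuberomammillary nucleus, showed a like pattern on fewer nuclei. Of 101 nuclei, 92 carried Gad1, at 181, 206 and 202 CPM in the libraries with 29 or more of them. Gad2 was found in 27, Slc32a1 in 12 and Slc17a6 in 6 of the 101. This population is outside the 35, since the Saline library of run B held 2 of its nuclei.

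In Pomc neurons (M35.Pomc) it was Gad2 that stood beside Slc17a6. Gad2 was at 138 and 114 CPM in the Saline and 139 and 126 CPM in the Insulin libraries, and was found in 54.6% ± 3.97 of nuclei. Slc17a6 was at 42.8 and 51.2 CPM in the Saline and 53.9 and 58.9 CPM in the Insulin libraries, in 31.7% ± 2.39 of nuclei. Slc32a1 was at 9.79 ± 3.19 CPM in 9.29% ± 4.02 of nuclei, within the background range. The same nuclei held Slc17a6 and Gad2 together in 17.5% ± 3.10 of cases.

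Few UMIs of the transmitter genes were counted in M1.GABA. Its 168 nuclei had a median of 1336.5 UMIs, and Slc17a6 was seen in 17.7%, Slc32a1 in 10.6%, Gad1 in 9.53% and Gad2 in 16.8% of them. Beside the 6 non-neuronal types other than OPC, the shares of Slc17a6 and Slc32a1 were within the range. That of Gad1 exceeded the highest (9.21%) only slightly and that of Gad2 exceeded 14.0%. Those types were deeper, at medians of 1919.5 to 4218.5 UMIs, so equal shares do not mean equal levels. In CPM the M1.GABA means were 148 for Slc17a6, 66.2 for Slc32a1, 79.9 for Gad1 and 145 for Gad2. The highest means of those types were 67.1, 29.7, 27.1 and 61.3 CPM. The lowest M1.GABA values for Gad1 and Gad2, 17.3 and 60.0 CPM, lay below these. Behind each M1.GABA value stood 19 to 39 UMIs per gene.

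Nuclei with UMIs of both classes were common at full depth. At least 1 UMI of a glutamate and of a GABA gene was found in 10.8% and 18.9% of neurons in the Saline and 14.99% and 14.6% in the Insulin libraries (mean 14.8% ± 3.33). The libraries had the same order in the background of non-neuronal nuclei: Slc17a6 in astrocytes and oligodendrocytes was at 3.89 and 9.16 UMIs per 100 nuclei in the Saline and 6.76 and 6.60 in the Insulin libraries. The part of this background in the share of neurons was not tested. With 2 or more UMIs of each class the share was 3.29% ± 1.06, with Slc17a6 and Slc32a1 only it was 4.59% ± 1.62, and with every nucleus thinned to 2000 UMIs it was 1.66% ± 0.430. Non-neuronal types had both in 1.25% to 6.35% of nuclei at full depth and in 0.566% to 2.09% when thinned. The thinned share of all neurons together was within that range. Thinning left out 214 neurons and, in all cell types, 3404 nuclei with fewer UMIs. Nuclei that the authors called doublets had both in 13.3% ± 7.19 of cases. A further 17.1% ± 4.15 of neurons had no UMI of any of the 6 genes.

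The 6 populations with the largest shares of both were M3.Pmch (46.1% ± 10.1), M18.Prlh (30.6% ± 8.15), M7.Ust (30.1% ± 6.77), M6.Slc17a8 (27.5% ± 5.39), M28.Tac2 (26.9% ± 9.77) and M10.Sim1|Trh (23.1% ± 7.07). In M3.Pmch the pair was Slc17a6 with Gad1, found in 52.4% and 52.2% of nuclei in the Saline and 36.4% and 21.7% in the Insulin libraries. With Slc17a6 and Slc32a1 only, M3.Pmch was at 1.68% ± 2.10, and the other 5 lay between 3.57% and 9.13%. M18.Prlh also carried Gad1, at 49.9 ± 5.17 CPM in 27.2% ± 4.90 of nuclei, beside Slc17a6 at 148 ± 12.8 CPM. The smallest shares were those of M31.Th (5.81% ± 2.29), M37.Tbx19 (4.82% ± 3.20) and M1.GABA (3.04% ± 3.68). Thinned to 2000 UMIs, the 6 largest lay between 2.13% and 4.45%, against at most 2.09% in the non-neuronal types. These 6 were picked for their shares on the same counts. M37.Tbx19 was at 0.515% and M31.Th at 0, while M1.GABA was at 5.05% ± 6.15, above all 6. Only 38 of the 168 M1.GABA nuclei held at least 2000 UMIs. Its thinned share therefore rests on few nuclei, and its place in the order after thinning cannot be judged.

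**Figure D3:**
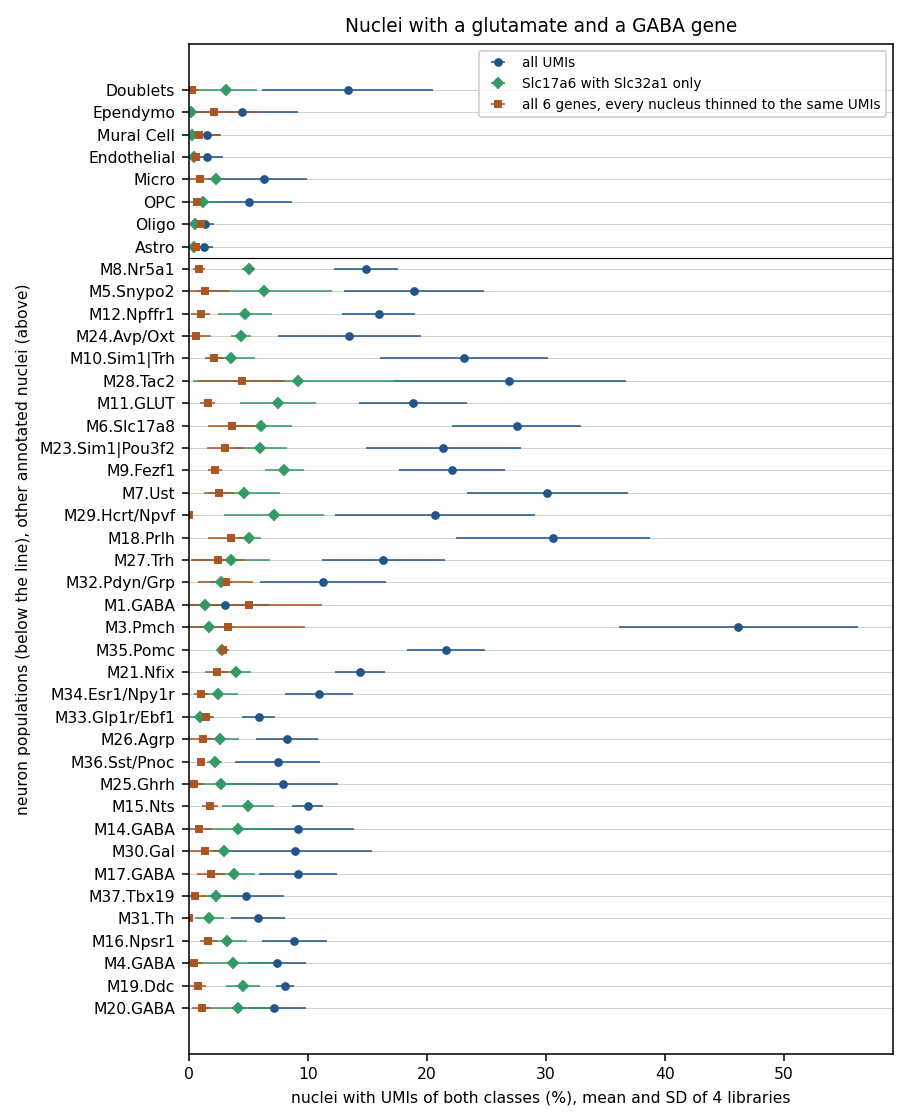
Share of nuclei with UMIs of both classes (%, x axis) in the same 34 populations and by cell type (y axis), as mean and SD of 4 libraries, with all UMIs (circles), with Slc17a6 and Slc32a1 only (diamonds) and after thinning every nucleus to 2000 UMIs (squares). M3.Pmch stands highest with all UMIs, at 46.1%, and is at 1.68% with the transporters alone.

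Of the cholinergic genes, Chat marked the growth hormone-releasing hormone neurons. In M25.Ghrh it stood at 63.7 and 60.8 CPM in the Saline and 59.4 and 50.6 CPM in the Insulin libraries (mean 58.6 ± 5.65). All 4 libraries exceeded those of the next population, M14.GABA (9.11 ± 5.70 CPM), followed by M15.Nts (8.97 ± 1.44 CPM), M4.GABA (7.94 ± 6.39 CPM) and M21.Nfix (7.17 ± 4.07 CPM). M25.Ghrh made up 0.693% of annotated nuclei and held 124 of the 578 Chat UMIs, or 21.5%. Chat was found in 38.1% ± 7.12 of its nuclei, against at most 0.786% of any non-neuronal type. The same population had GABA genes, with Gad2 at 161 ± 15.2 CPM, and Chat and a GABA gene met in 31.9% ± 11.6 of its nuclei.

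Slc5a7 was scarce in the same population, and Slc18a3 could not be judged. Slc18a3 had 0 UMIs in all annotated nuclei, which allows a share of up to 0.0129% of neurons and up to 1.19% of M25.Ghrh nuclei to hold a UMI, for counting error only. Slc18a3 (ENSMUSG00000100241, chromosome 14, 32462438 to 32464850) is a gene of 1 exon and 2413 bases that lies inside Chat on the same strand and covers none of the Chat exons. Whether reads there were counted for Chat, for Slc18a3 or for neither is not given in the sources used here, so the 0 is no measure of the transporter transcript. Slc5a7 was found in 4 of 253 M25.Ghrh nuclei, against 95 with Chat. Its level there, 3.69 ± 2.76 CPM, still ranked 5 among the 35 populations, whose median was 0.556 CPM.

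Slc5a7, which takes choline back into the terminal, had its highest CPM outside neurons. In OPC it stood at 33.1 and 26.8 CPM in the Saline and 29.2 and 19.5 CPM in the Insulin libraries (mean 27.1 ± 5.71), and 140 of its 449 UMIs lay in these 876 nuclei. It was found in 13.4% ± 3.42 of OPC, at a median of 4928.5 UMIs, and in at most 0.620% of any other non-neuronal type. Thinned to 2000 UMIs, OPC were at 5.73% and the other non-neuronal types at no more than 0.893%. Gad1 was also found in OPC, at 48.2 ± 2.68 CPM in 23.7% ± 3.29 of nuclei, above the 4.60% to 9.21% of the other non-neuronal types, whereas Slc17a6 (10.9% ± 4.73) and Slc32a1 (8.33% ± 4.65) were within theirs. Of 209 OPC with Gad1, 32 also had Slc5a7 (15.3%), against 12.7% of those without Gad1. Among neurons Slc5a7 was highest in M3.Pmch (16.6 ± 9.72 CPM, 27 UMIs) and M24.Avp/Oxt (8.13 ± 5.93 CPM, 17 UMIs), and in both its libraries differed widely. By nuclei M3.Pmch was above OPC, with Slc5a7 in 17.8% ± 12.6 of its deeper nuclei and in 6.65% ± 5.55 after thinning.

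**Figure D4:**
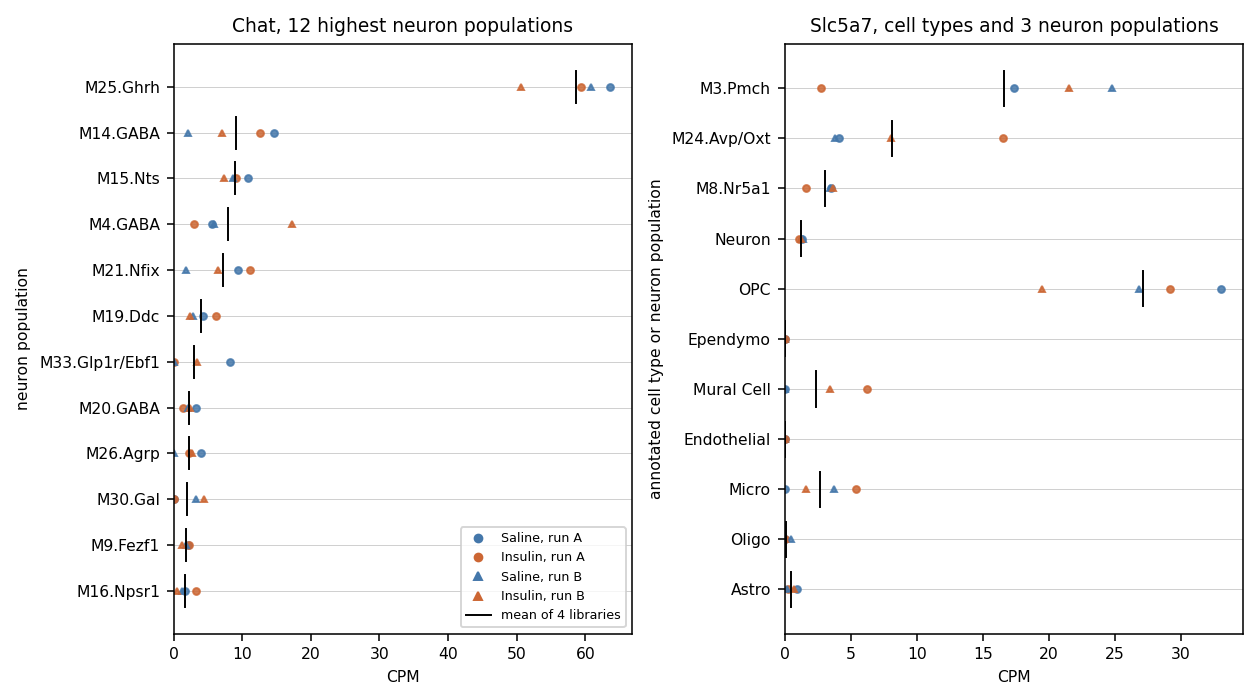
Chat in the 12 neuron populations with the highest means and Slc5a7 in 8 cell types and 3 neuron populations (CPM, x axes), with 1 point per library and a bar at the mean. Chat in M25.Ghrh lies between 50.6 and 63.7 CPM in the 4 libraries, and Slc5a7 in OPC between 19.5 and 33.1 CPM.

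Across the 35 populations the members fell into opposed sets. On log2(CPM + 1) means, Slc32a1 and Gad2 had a Pearson correlation of 0.90, Gad1 and Gad2 of 0.87 and Slc32a1 and Gad1 of 0.83. Slc17a6 stood at -0.79 with Slc32a1, -0.81 with Gad1 and -0.81 with Gad2, and Chat and Slc5a7 at -0.11. The points share libraries and depth, and the populations were themselves built from these counts, so the values describe this set of populations. Among 12168 genes with a mean of at least 5 CPM, those most like Slc17a6 were Chst8, a sulfotransferase gene (0.87), Cerkl (0.83) and Ano5 (0.81). Nrxn3, a presynaptic adhesion gene, led for Slc32a1 (0.88), Gad1 (0.85) and Gad2 (0.92). It was followed by Dlx6os1 and Dlx1 for Slc32a1 (0.81 and 0.74) and for Gad2 (0.76 and 0.72). For Gad1 the next were Erich2 (0.79) and Gad1os (0.75), a gene on the opposite strand whose span overlaps that of Gad1. The closest genes to the sparse members were less alike: Sppl2a for Chat (0.73), Nrn1 for Slc17a7 (0.71), Susd1 for Slc5a7 (0.67) and E130114P18Rik for Slc17a8 (0.62).

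Transcription factors of the 2 lineages were set against the glutamate share. The correlation with it was below 0 for 11 of 11 GABA lineage factors (median -0.60), among them Dlx5 (-0.76), Dlx6 (-0.71), Dlx2 (-0.69) and Isl1 (-0.60). It was above 0 for 9 of 10 glutamate lineage factors (median 0.28), led by Fezf1 (0.66), Nhlh2 (0.60), Nr5a1 (0.48) and Sim1 (0.45), with Bcl11b at 0.10 and Otp at -0.10. Of all 12168 genes, 3661 were above and 8507 below 0, with a median of -0.12. These genes have a mean of at least 5 CPM, which only 3 of the 11 and 4 of the 10 factors reach. Otp was highest in M26.Agrp (103 CPM) and Bcl11b in M4.GABA (185 CPM), populations of low glutamate share. The genes of glutamate and GABA metabolism and uptake split, with 7 of 18 above 0 (median -0.07), and Abat, which breaks down GABA, was the farthest below (-0.59). Of the other acetylcholine genes 5 of 7 were above 0 (median 0.03), and of the monoamine genes 1 of 6 (median -0.29), Th, Ddc, Slc18a2 and Slc6a3 being highest in M31.Th or M19.Ddc. Slc6a5, the glycine transporter gene of glycine neurons, was at no more than 0.754 CPM in any population.

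The study compared mice given insulin with mice given saline. In neurons as a whole no member passed the quasi-likelihood test of edgeR after Benjamini-Hochberg adjustment, and neither did any of the 20275 genes tested (percent called 0). At an unadjusted p under 0.05 there were 103 genes and 0 members. DESeq2 called 0 genes (74 unadjusted), limma-voom 0 (105 unadjusted) and edgeR with the run as a block 0 (1862 unadjusted). Slc18a3 could not be tested, and the adjusted p of the other 8 members was 0.9998.

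Neuron levels differed between libraries about as much within groups as between them. Slc17a6 stood at 67.8 and 91.3 CPM in the Saline and 90.5 and 82.3 CPM in the Insulin libraries (log2 fold change 0.12, SE 0.16). Slc32a1 stood at 19.6 and 36.0 CPM in the Saline and 28.2 and 37.9 CPM in the Insulin libraries (log2 0.25, SE 0.31). For both genes the groups overlapped. Gad1 stood at 49.9 and 47.8 CPM in the Saline and 47.7 and 64.5 CPM in the Insulin libraries (log2 0.19, SE 0.16), and Gad2 at 119 and 123 CPM and at 113 and 139 CPM (log2 0.05, SE 0.12). Gad1 was set apart by 1 library, the Insulin library of run B.

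The scarcer members had wider errors: the log2 fold change was -0.31 (SE 0.37) for Slc17a8, -0.36 (SE 0.64) for Slc17a7, -0.19 (SE 0.39) for Chat and -0.18 (SE 0.29) for Slc5a7. Slc5a7 was the only member whose groups did not overlap, at 1.29 and 1.36 CPM in the Saline and 1.10 and 1.25 CPM in the Insulin libraries. Of all genes, 11.6% were lower and 8.74% higher in both Insulin libraries than in both Saline libraries. Within runs, the sign of the difference was the same in both for Slc17a7, Slc32a1 and Slc5a7 and opposite for Slc17a6, Slc17a8, Gad1, Gad2 and Chat. The 13 populations of high glutamate share made up 40.0% and 50.3% of neurons in the Saline and 46.5% and 39.4% in the Insulin libraries, and the part of this make-up in the levels was not tested. Whether fewer cells of a kind or less RNA per cell lay behind a neuron total cannot be told apart from the totals.

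**Figure D5:**
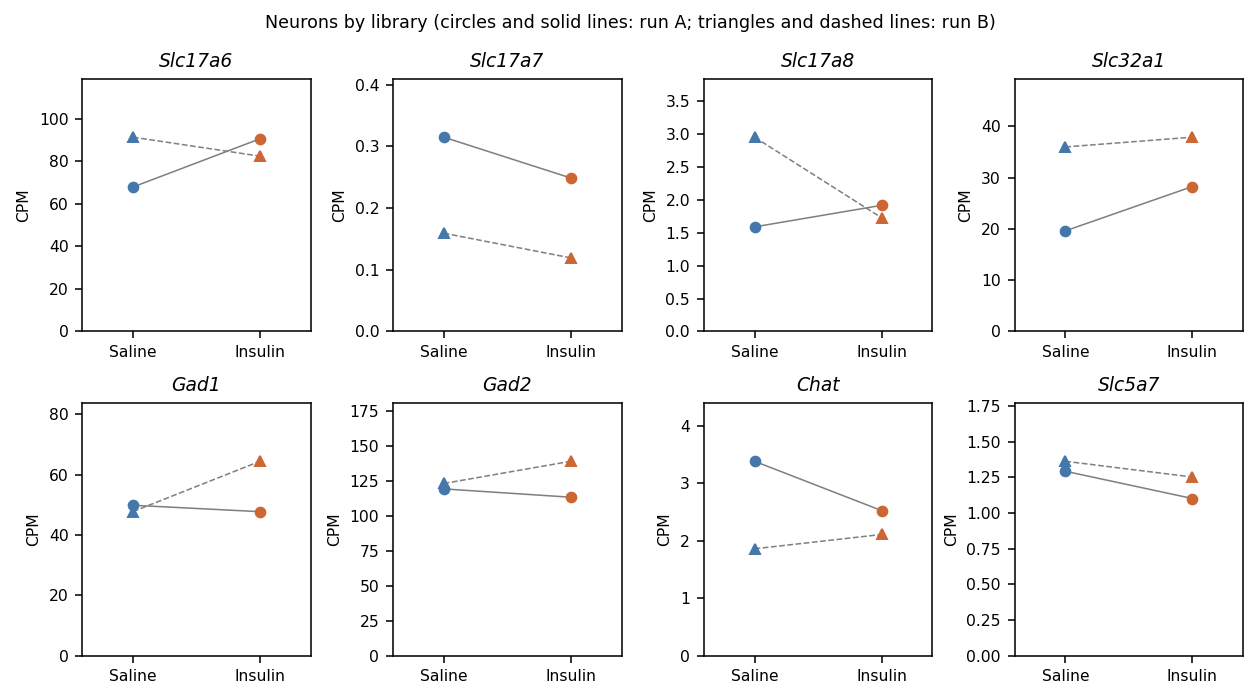
Levels of 8 members in all neurons (CPM, y axes from 0) by library, Saline at left and Insulin at right, with lines joining the 2 libraries of a run (solid for run A, dashed for run B). The lines of Slc17a6, Slc17a8, Gad1, Gad2 and Chat slope in opposite directions in the 2 runs, and those of Slc32a1, Slc17a7 and Slc5a7 in the same direction.

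Within populations 129 of 315 member tests had enough UMIs to be made, and the adjusted edgeR quasi-likelihood test called 0 of them. Over all genes of the 35 populations it called 3 of 359137 tests (0.000835%), and with the run as a block 467 (0.13%), with 0 members in either. Without the Saline library of run B, which leaves 1 Saline library whose spread is taken from the Insulin group, it called 3 of 138 member tests and 1.43% of all tests (5447 of 381523). The 3 were Slc32a1 in M20.GABA (adjusted p = 0.00885) and M17.GABA (adjusted p = 0.0213), and Gad2 in M10.Sim1|Trh (adjusted p = 0.0246), each higher in the Insulin libraries. Of all genes tested in these populations, 4.26%, 3.52% and 2.71% were called in the same fit. In M20.GABA and M17.GABA the library left out had Slc32a1 at 85.5 and 83.8 CPM, within the values of the Insulin libraries. DESeq2 called 0 member tests.

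At an unadjusted p under 0.05 there were 7 of 129 member tests (5.43%), against 2.13% of all tests. Both Insulin libraries were above both Saline libraries in 29 member tests (22.5%) and below them in 5 (3.88%), against 14.2% and 13.8% of all tests. The populations share their libraries, so these tests are not independent, and the members that were tested are those with more UMIs. The median log2 fold change of the member tests was 0.15, where the median over all genes of a population lay between -0.01 and 0.01. It was 0.13 for Slc17a6 (29 tests), 0.20 for Slc32a1 (28 tests), 0.17 for Gad1 (31 tests) and 0.10 for Gad2 (34 tests). Slc17a8, with 2 tests, had a median of -0.75. The Saline library of run A had the fewest UMIs of Slc17a6, Slc32a1, Gad1 and Gad2 per 100 astrocytes and oligodendrocytes, and the part of this was not tested.

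The 5 member tests with the smallest p were Gad1 in M7.Ust, Slc17a8 in M5.Snypo2, Gad2 in M3.Pmch, Slc32a1 in M29.Hcrt/Npvf and Gad2 in M10.Sim1|Trh. Gad1 in M7.Ust stood at 1.96 and 9.01 CPM in the Saline and 19.3 and 21.1 CPM in the Insulin libraries (log2 1.70, SE 0.53, 63 UMIs). Slc17a8 in M5.Snypo2 was the one lower in the Insulin libraries, at 6.16 and 4.72 CPM against 24.6 and 17.5 CPM (log2 -1.84, SE 0.59, 40 UMIs). Gad2 in M3.Pmch had a log2 fold change of 2.06 (SE 0.64, 39 UMIs). In all 5 the groups did not overlap, and the adjusted p of edgeR's quasi-likelihood test lay between 0.998 and 0.9999. In M26.Agrp, Gad1 stood at 74.0 and 46.9 CPM in the Saline and 105 and 88.8 CPM in the Insulin libraries (log2 0.62, SE 0.26, adjusted p = 0.9993 by edgeR). Slc17a6 in M28.Tac2 (log2 0.52, SE 0.24) and Chat in M25.Ghrh (log2 -0.18, SE 0.29) also had groups that did not overlap, and neither passed the test.

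The share of neurons with UMIs of both classes did not differ between the groups beyond their spread. It was 14.9% ± 5.76 in the Saline and 14.8% ± 0.266 in the Insulin libraries (n = 2 each), a difference of -0.0504 percentage points (exact permutation test, two-sided, p = 1, where the smallest p that 2 against 2 libraries allow is 0.33). Within run A the Insulin library was higher by 4.21 and within run B the difference was -4.31 percentage points. Of the 53 other genes of transmitter pathways and lineages, 48 were tested in neurons, and edgeR's quasi-likelihood test called 0 of them, with 0 at an unadjusted p under 0.05 and 7 with the run as a block. Their median log2 fold change was 0.07.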

How the data were processed

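UMI counts, not normalized, are deposited for each gene in each nucleus. The submitters' processing notes name Cell Ranger and GRCm38; version, annotation and the counting of introns are not given in the sources used here. No barcode had fewer than 500 UMIs. A table deposited by the authors gives the library, run, treatment, cell type and population of 36534 nuclei; 11 had no barcode in the matrix, and 4633 barcodes had no annotation. Its library names do not match the titles in the labels, so libraries are named by treatment and run.

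Counts were summed per library over neurons and over each population with at least 10 nuclei in every library, and scaled to CPM. Insulin was compared with Saline in edgeR 4.0.16 (R 4.3.3; TMM, filterByExpr with minimum count 10 and minimum total count 15, quasi-likelihood test, Benjamini-Hochberg over all genes of a fit, threshold 0.05), with DESeq2 1.42.0 and limma 3.58.1 (voom) as alternatives. The fits were tested on simulated data. Single values were tested with an exact permutation test (SciPy 1.17.1). Doublets were those called by the authors and were left out. Nuclei were thinned to 2000 UMIs with a fixed seed.

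Each run held 1 library of each group, and the 2 libraries of a run shared their departure from the group means (correlation 0.684 over 20275 genes, equal in both runs because each group has 2 libraries). The run, which coincides with sex, entered another fit as the replicate block.

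The genes and lists were chosen with earlier results of these data known. Populations named are the 5 highest and the lowest of each gene, those known for a transmitter or peptide, and the 6 highest and 3 lowest for nuclei with both classes; genes most alike are the 3 highest correlations; insulin results named are the members in neurons and the 5 smallest p in populations. Others were named after their values were seen. A population and a gene that these rules select are not reported here.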

Additional observations from a re-analysis of the deposited data

Results flagged for a closer look

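The level of each member was compared across the 4 libraries wherever at least 20 UMIs stood behind it, in 189 combinations of gene and population or cell type. In 14 of them 1 library lay far from the other 3, a gap that chance gives in about 1 in 20 groups.

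In 6 of the 14 it was the Insulin library of run B that stood high. Gad1 was at 64.5 CPM in neurons (other libraries 47.7 to 49.9) and at 124 CPM in M20.GABA (93.2 to 97.2). Gad2 was at 243 CPM in M14.GABA (185 to 193) and at 30.5 CPM in M11.GLUT (20.7 to 21.1). Slc32a1 was at 19.8 CPM in M18.Prlh (7.53 to 8.57), and Slc17a6 at 19.0 CPM in M4.GABA (5.88 to 7.33).

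The Saline library of run A stood low for Slc32a1 in M20.GABA, at 46.1 CPM (82.5 to 89.3), and in M15.Nts, at 35.7 CPM (60.9 to 64.1), and for Slc17a6 in M10.Sim1|Trh, at 122 CPM (155 to 158). The Saline library of run B stood high in Ependymo nuclei for Slc17a6, at 64.9 CPM (9.74 to 15.2), and for Gad2, at 48.0 CPM (11.04 to 14.6), and low for Gad2 in M34.Esr1/Npy1r, at 79.4 CPM (113 to 114). The Insulin library of run A stood low for Gad1 in M28.Tac2, at 7.35 CPM (21.04 to 21.5), and for Slc5a7 in M8.Nr5a1, at 1.65 CPM (3.44 to 3.69).

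Of the 4633 barcodes without an annotation, which entered no comparison, 683 had UMIs of both a glutamate and a GABA gene, or 14.7% (95% exact binomial interval 13.7% to 15.8%, for counting error only and not for the spread between libraries), at a median of 7270 UMIs. A count of 0 would have allowed 0.0648%.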

How the results depend on the processing

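The counts of members called in neurons stayed at 0 under DESeq2 size factors, total UMIs only, DESeq2, limma-voom, no filter on low counts, the run as replicate block, each library left out and removal of shared barcodes (the last added after seeing the data). In populations 0 member tests were called under DESeq2 size factors, DESeq2, no filter, a minimum of 30 nuclei and the replicate block, and 0 to 3 with a library left out, the 3 without the Saline library of run B. The share of neurons with both classes was 3.29% with 2 UMIs of each, 1.66% after thinning and 4.59% with Slc17a6 and Slc32a1 only. Its insulin minus saline difference turned to 0.0746 after thinning and to 0.35 with the transporters only, and ran from -4.13 to 4.02 with a library left out; without the Insulin library of run B it was 0.138. Populations above 50% glutamate share numbered 20 with the transporters only. With a library left out, the log2 fold change in neurons turned sign for 7 members: it ran from -0.043 to 0.32 for Slc17a6, -0.091 to 0.72 for Slc32a1, -0.58 to 0.35 for Chat, -1.02 to 0.26 for Slc17a7, -0.66 to 0.16 for Slc17a8, -0.013 to 0.37 for Gad1 and -0.076 to 0.17 for Gad2. The cause was not tested. Adding doublets was not run, since none carries a population. Scarce genes are limited by depth: Slc17a7, Slc5a7, Slc17a8 and Chat had 52 to 578 UMIs in all.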

Other observations

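Slc17a8, whose protein VGLUT3 is known from cells that use other transmitters as well, was also counted outside neurons. The nuclei annotated Endothelial held 37 of its 531 UMIs in 32 of 1441 nuclei, and Ependymo nuclei held 4 UMIs in 4 of 274 nuclei. Astrocytes, with 5407 nuclei, held 10 UMIs.

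The ratio of Gad1 to Gad2 UMIs, given without a test, was 0.271 ± 0.0695 (SD, n = 4 libraries) in M35.Pomc, 0.401 ± 0.117 in M26.Agrp and 10.5 ± 12.7 in M3.Pmch. The last was set by the Saline library of run A, at 29.3, without which the mean was 4.16; the 218 Gad1 and 39 Gad2 UMIs pooled gave 5.59.

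In nuclei left Unassigned by the authors, Slc17a6 was at 9.46 and 9.44 CPM in the Saline and Insulin libraries of run A and at 168 and 148 CPM in those of run B. Of 636 nuclei whose barcode sequence occurs in more than 1 library, 387 were Unassigned.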
